A study of Mus musculus with 15 samples.

Results

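The genes described here carry glucose into the cell and break it down. They are 34 genes of glucose transport, glycolysis, lactate handling, glycerol 3-phosphate formation and the pentose phosphate pathway. They were the rows of a table of gene counts, by Ensembl identifier, that carry one of 34 mouse symbols, out of 37991 identifiers in all. All 34 were found, and all 34 passed the filter on low counts in each of the 4 comparisons.

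Messenger RNA was sequenced from 2 fat depots of C57BL/6 mice, wild type or labelled as lacking IL-33, a cytokine that acts through the receptor ST2. The series title links IL-33 and ST2 to uncoupled respiration, which makes heat in brown and beige adipocytes. Brown fat burns fuel for heat from birth, while inguinal white fat stores lipid and can hold beige adipocytes. The 8 brown libraries were from newborns at postnatal day 0.5, 4 wild type and 4 IL-33 knockout. The 7 inguinal libraries were from mice at postnatal day 24, 4 wild type and 3 IL-33 knockout, numbered 2 to 4. Depot and age change together, so they cannot be told apart. The sources used here do not give the allele, the sex or the number of animals behind a library, and p-values measure the spread between libraries, which may be technical.

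Total counts ran from 26059635 to 53923009 per library. Il33 itself was at 3.45 to 4.61 CPM (read counts scaled to a common library size) in the 4 inguinal wild-type libraries and at 0.0791 to 0.471 CPM in the 3 knockout libraries. In brown fat it was at 1.73 to 3.21 CPM in wild type and at 0.413 to 1.75 CPM in the knockout group, so these ranges met and that group is called labelled knockout here. Adipocyte markers summed to between 10237 and 27735 CPM in every library, and Ucp1, the heat-making uncoupling protein, was at 602 CPM or more in all of them. Brown library 1 of the labelled knockout lay on the wild-type side of the first principal component (-38.1, against 24.7 to 58.8 for the other 3). On the second component it was at 50.4, above every other brown library, the next being at 10.8. Its Il33 was the lowest of all brown libraries (0.413 CPM), and labelled knockout library 2 was the one that met wild type (1.75 CPM). Calls among the genes described here that changed without library 1 are given with and without it. Most other brown values are given only with it. Fewer cells of a type and less RNA per cell cannot be told apart in these bulk samples.

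Glucose enters fat cells through facilitative transporters of the GLUT family, of which GLUT4 moves to the cell surface when insulin binds. Hexokinases trap it as glucose 6-phosphate, which glycolysis turns into pyruvate and lactate, or which the pentose phosphate pathway turns into NADPH for lipid synthesis and into ribose. Triglyceride needs a glycerol 3-phosphate backbone made from a glycolytic intermediate, and active brown fat is known for high glucose uptake.

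The promoters of 4 genes are printed first, because their genes carried the results below or are textbook targets of glucose- and oxygen-sensing factors. They are the 250 bases before the RefSeq start site (build GRCm38.p6), written 5′ to 3′ on the gene's strand. Capitals mark ACGTG on either strand, a form of the core of the hypoxia response element. They also mark CACGTG, the E-box, a separate element whose letters contain ACGTG. The gene Slc2a1 (ENSMUSG00000028645) encodes the transporter GLUT1, Slc16a1 (ENSMUSG00000032902) the monocarboxylate transporter MCT1, Hk2 (ENSMUSG00000000628) hexokinase 2 and Ldha (ENSMUSG00000063229) the A subunit of lactate dehydrogenase.
Slc2a1, chr4:119108495-119108744, plus strand: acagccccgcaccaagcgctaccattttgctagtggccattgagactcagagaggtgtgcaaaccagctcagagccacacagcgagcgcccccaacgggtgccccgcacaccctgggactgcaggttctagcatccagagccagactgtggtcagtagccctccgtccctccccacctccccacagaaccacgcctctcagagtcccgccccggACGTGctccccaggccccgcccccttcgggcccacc
Slc16a1, chr3:104638414-104638663, plus strand: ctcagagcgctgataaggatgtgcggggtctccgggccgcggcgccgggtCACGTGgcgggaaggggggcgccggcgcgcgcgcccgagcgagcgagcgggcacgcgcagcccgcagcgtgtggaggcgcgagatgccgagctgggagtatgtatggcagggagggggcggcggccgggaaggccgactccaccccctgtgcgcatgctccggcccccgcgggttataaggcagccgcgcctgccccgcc
Hk2, chr6:82774455-82774704, minus strand: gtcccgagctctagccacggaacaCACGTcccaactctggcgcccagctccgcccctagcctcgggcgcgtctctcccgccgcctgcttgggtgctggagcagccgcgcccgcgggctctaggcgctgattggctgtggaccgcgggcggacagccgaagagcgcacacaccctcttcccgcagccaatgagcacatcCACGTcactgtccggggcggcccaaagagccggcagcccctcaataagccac
Ldha, chr7:46845554-46845803, plus strand: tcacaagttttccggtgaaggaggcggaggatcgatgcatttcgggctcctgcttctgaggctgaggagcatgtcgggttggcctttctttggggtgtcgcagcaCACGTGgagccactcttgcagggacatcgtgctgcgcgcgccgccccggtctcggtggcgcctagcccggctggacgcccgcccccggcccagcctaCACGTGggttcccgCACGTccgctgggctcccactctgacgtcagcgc

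Over windows of 250 bases before to 50 bases after the start site, RefSeq matched 31 of the 34 genes, with 48 start sites between them, and Slc2a3, Slc2a4 and Gpd1 had none. ACGTG, searched on both strands and counted also where it lies inside CACGTG, was in 20 of these 48 windows (41.7%), against 19.6% of the 32851 windows of all genes. CACGTG was in 4 of 48 (8.33%, against 7.15%). GGGCGG, the GC box bound by Sp1, was in 28 of 48 (58.3%, against 35.7%). A match describes letters and is not a site of binding. All 4 printed promoters hold ACGTG, and Ldha passed in neither knockout comparison below. Of the other genes that rose in inguinal fat, Pfkm, Aldoa, Pgam1, Pkm and Gpd2 hold it in the 250 bases before at least 1 start site. In those bases Slc2a8, Hk1, Pfkl, Pfkp, Eno1, Ldhb, G6pdx, Pgls, Pgd, Taldo1 and Rpia, which rose too, do not hold it. Of the genes that did not pass in inguinal fat, Hk3, Pfkfb3, Pgk1 and Slc16a3 hold it there, as Ldha does. Gpi1, Pfkfb1, Aldoc, Tpi1, Gapdh, Tkt and Rpe, which did not pass either, do not. A link between these letters and the changes was not tested.

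In inguinal fat most of these genes were higher in the knockout. Of the 34, 22 rose, 0 fell and 12 did not pass (edgeR's quasi-likelihood test, Benjamini-Hochberg adjusted p below 0.05 over all genes). Over all 15710 genes tested, 15.3% were higher and 13.3% lower, 28.6% in either direction. The median log2 fold change of the 34 was 0.51, beside -0.016 for all genes. The count of 0 lower genes was also 0 at an unadjusted p below 0.05, with DESeq2 and with limma-voom. Genes of all 8 roles were among the 22, from the glucose transporters to both glycerol 3-phosphate dehydrogenases and all 3 oxidative pentose phosphate enzymes. The 22 inguinal rises became 14 when all 4 groups were fitted together (13.3% of all genes called), with Slc2a1, Slc2a3, Slc2a4, Slc2a8, Pfkl, Eno1, Pkm and Rpia no longer passing (edgeR adjusted p = 0.0728 to 0.268). The 34 genes took 1.71 to 1.84% of all counts in the inguinal wild-type libraries and 1.91 to 2.71% in the knockout libraries. Where groups are said below not to overlap, in either depot, this describes the libraries. The share of all genes with such a separation was not counted.

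In newborn brown fat 1 of the 34 genes, Slc2a1, rose in the labelled knockout, 0 fell, and 33 did not pass. The background was 0.26% of 15796 genes in either direction, 0.184% higher and 0.076% lower. The median log2 fold change was 0.16, beside 0.0061 for all genes. At an unadjusted p below 0.05, 9 of the 34 were higher and 2 lower. DESeq2 called 3 higher and 1 lower (6.53% of all genes), and limma-voom with library weights 6 higher and 3 lower (19.8%). The joint fit of all 4 groups called 3 genes higher, Slc2a1, Slc2a3 and Hk2, and Slc16a1 lower (6.83% of all genes). Without labelled knockout library 1, 2 were higher and 4 lower (18.1%).

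**Figure D1:**
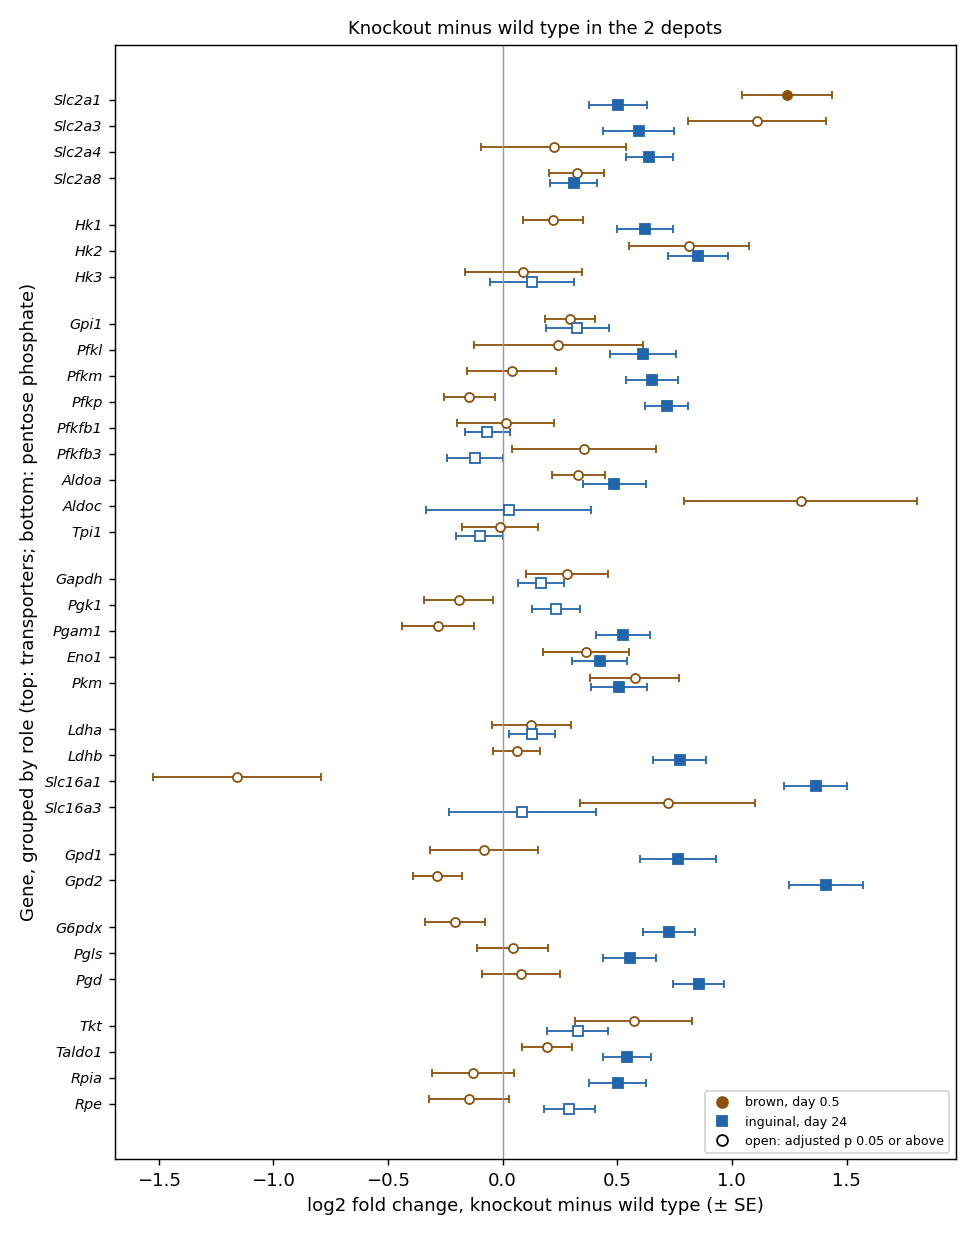
Log2 fold change of each of the 34 genes, knockout minus wild type, with its standard error (bars), in brown fat at day 0.5 (circles; 4 labelled knockout against 4 wild-type libraries) and inguinal fat at day 24 (squares; 3 against 4). Filled symbols passed at an adjusted p below 0.05: 22 inguinal genes, all to the right of 0, and Slc2a1 in brown fat; Slc16a1 is farthest to the left in brown and near the right end in inguinal fat.

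Cell-type markers moved with the inguinal genotype, and their part in these results was not tested. Skeletal muscle genes summed to 159 to 444 CPM in the 4 wild-type libraries and 47.6 to 54.9 CPM in the knockout, with 14 of 15 tested lower. Tnnc2, the marker not tested, had at most 10 counts in any library. Brown adipocyte genes summed to 1405 to 2121 CPM in wild type and 2784 to 3500.1 CPM in the knockout, with 5 of 8 higher. General adipocyte genes overlapped, at 24690.2 to 26371 CPM and 23508 to 27735 CPM, with 1 of 9 higher. Endothelial genes summed to 901 to 1098 CPM and 796 to 873 CPM, with 3 of 6 lower. B cell genes summed to 12.2 to 22.2 CPM and 5.19 to 14.4 CPM, with 2 of 8 lower. Neutrophil genes summed to 2.03 to 3.66 CPM and 4.54 to 4.91 CPM, with 2 of 4 tested higher. None of the 6 T cell, 6 macrophage and 8 erythroid genes passed by edgeR in the inguinal comparison or had an unadjusted p below 0.05, and neither did the 1 of 7 epithelial genes that could be tested.

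The 4 glucose transporters all rose in inguinal knockout fat when that depot was fitted alone, and none of the 4 passed with all 4 groups in 1 fit (edgeR adjusted p = 0.0801 for Slc2a1, 0.175 for Slc2a3 and 0.158 for Slc2a4). Slc2a4, the insulin-responsive GLUT4, was measured in wild-type libraries 1 to 4 at 376, 353, 314 and 348 CPM, while knockout libraries 2 to 4 held 594, 547 and 471 CPM. Every knockout library was above every wild-type library (log2 0.64, SE 0.10, edgeR adjusted p = 0.00052). Per kilobase of exon, Slc2a4 was the most abundant of the 4 in all groups (100.02 ± 7.31 CPM per kb in inguinal wild type, SD, n = 4), and Slc2a1 reached 2.55 ± 0.22. Slc2a3, the high-affinity GLUT3, rose by a log2 of 0.59 and Slc2a8, the intracellular GLUT8, by 0.31, a call lost in 9 of 14 alternatives (adjusted p = 0.0521 to 0.119 by edgeR or limma).

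Slc2a1, the basal transporter GLUT1 whose promoter is printed above, was the 1 gene that passed in both depots. In inguinal fat it was at 7.92, 9.31, 8.77 and 9.69 CPM in wild type and at 13.5, 10.996 and 13.1 CPM in the knockout (log2 0.50, SE 0.13, edgeR adjusted p = 0.00903). The newborn brown libraries had it at 6.86, 7.66, 7.05 and 5.95 CPM in wild type and at 20.2, 13.7, 11.7 and 19.8 CPM in the labelled knockout. Those groups did not overlap, and labelled knockout libraries 1 and 4 were the highest (log2 1.24, SE 0.20, edgeR adjusted p = 0.0455). The brown call was lost when wild-type library 1, 2, 3 or 4 or labelled knockout library 2 or 4 was left out, with a filter at 5 CPM and with the replicate block. The adjusted p was then 0.0517 to 0.152, at a log2 change of 1.12 to 1.37 over all alternatives.

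The other 3 brown transporters did not pass by edgeR. Slc2a3 was at 10.1, 12.3, 9.17 and 9.87 CPM in brown wild type and at 10.1, 33.2, 25.0 and 21.5 CPM in the labelled knockout (log2 1.11, SE 0.30, edgeR adjusted p = 0.124). Labelled knockout library 1 lay among the wild-type libraries and the other 3 lay above them, and without it the change was 1.35 (SE 0.16, edgeR adjusted p = 0.00107). DESeq2 (1.12, adjusted p = 0.0105) and limma-voom (1.26, adjusted p = 0.00598) called Slc2a3 higher with all 8 libraries. Slc2a4 split the brown wild-type group, at 261, 226, 92.2 and 106 CPM, with libraries 1 and 2 well above 3 and 4. The labelled knockout, at 210.4, 233, 192 and 167 CPM, lay above wild-type libraries 3 and 4 and below wild-type library 1 (log2 0.22, SE 0.32, edgeR adjusted p = 0.745).

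Hexokinases rose in the inguinal knockout, except for Hk3. Hk2, the insulin-regulated form, stood at 224, 229, 190.0 and 177 CPM in wild type and at 406, 405 and 288 CPM in the knockout. The groups did not overlap (log2 0.85, SE 0.13, edgeR adjusted p = 0.00043). Hk1, the widely expressed form, was at 21.5, 23.8, 23.0 and 21.6 CPM and at 39.7, 35.8 and 27.3 CPM, again without overlap (log2 0.62, SE 0.12, edgeR adjusted p = 0.00188). Hk3 lay between 2.66 and 3.98 CPM in all 7 inguinal libraries, and did not pass (log2 0.13, SE 0.18, edgeR adjusted p = 0.645).

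In brown fat Hk2 was at 202, 197, 97.2 and 223 CPM in wild type and at 443, 301, 244 and 283 CPM in the labelled knockout. All 4 labelled knockout libraries were above all wild-type ones, yet Hk2 did not pass (log2 0.81, SE 0.26, edgeR adjusted p = 0.159). DESeq2 gave 0.82 (adjusted p = 0.0438). Hk1 changed by 0.22 and Hk3 by 0.091, neither past the test.

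In upper glycolysis, which spends ATP to make and split fructose 1,6-bisphosphate, 4 of 9 genes rose in inguinal fat. The 3 phosphofructokinase genes, which encode the committed step, all rose. Pfkp, the platelet-type subunit, was at 69.2, 73.6, 70.9 and 69.4 CPM in wild type and at 128, 117 and 99.7 CPM in the knockout (log2 0.72, SE 0.095, edgeR adjusted p = 0.000125). Pfkm, the muscle-type subunit, was at 49.8, 54.1, 49.6 and 40.1 CPM and at 82.9, 77.2 and 65.7 CPM (log2 0.65, SE 0.11, edgeR adjusted p = 0.000815). Both rose without overlap between the groups. Pfkl, the liver-type subunit, rose by a log2 of 0.61 (SE 0.14, edgeR adjusted p = 0.00713).

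Aldoa, the main aldolase, was at 2338, 2236, 2119 and 2206 CPM in inguinal wild type and at 3841, 3058 and 2365 CPM in the knockout. Library 4 of the knockout was just above the highest wild-type library (log2 0.49, SE 0.14, edgeR adjusted p = 0.0173). The call was lost without knockout library 2 or 3 (edgeR adjusted p = 0.0557 to 0.0813). The 5 genes that did not pass were Gpi1 (glucose phosphate isomerase, 0.33), Aldoc (0.027), Pfkfb1 and Pfkfb3 (which set fructose 2,6-bisphosphate, -0.066 and -0.12) and Tpi1 (triose phosphate isomerase, -0.10).

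None of these 9 passed in brown fat by edgeR, with log2 changes from -0.14 for Pfkp to 1.30 for Aldoc, and 3 had an unadjusted p below 0.05. Brown Aldoa was at 2761, 2723, 2054 and 2183 CPM in wild type and at 3117, 3075, 3079 and 3004 CPM in the labelled knockout (log2 0.33, SE 0.12, edgeR adjusted p = 0.183). The groups did not overlap. By limma-voom Aldoa, Gpi1 and Aldoc passed (adjusted p = 0.0386, 0.0346 and 0.0247). Pfkp was at 40.4, 45.9, 41.1 and 41.4 CPM and at 45.3, 35.9, 33.0 and 39.2 CPM, with labelled knockout library 1 inside the wild-type range and the other 3 below it. Pfkl stood at 331 CPM in labelled knockout library 1 and at 93.5 to 123 CPM in the other 3, and its change of 0.24 became -0.33 without that library.

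Lower glycolysis, which returns ATP and ends in pyruvate, had 3 of 5 genes higher in inguinal fat. Pgam1, phosphoglycerate mutase, was at 103, 95.8, 88.8 and 107 CPM in wild type and at 157, 153 and 112 CPM in the knockout (log2 0.53, SE 0.12, edgeR adjusted p = 0.00474). Pkm, pyruvate kinase, was at 869, 872, 818 and 719.8 CPM and at 1342, 1169 and 952 CPM (log2 0.51, SE 0.12, edgeR adjusted p = 0.00677). In both genes the lowest knockout library was above the highest wild-type library. Eno1, enolase 1, rose by 0.42 (SE 0.12, edgeR adjusted p = 0.0173), a call lost without knockout library 2 or 3 or wild-type library 4, or with all 4 groups in 1 fit (edgeR adjusted p = 0.0555 to 0.146).

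Gapdh and Pgk1, the first 2 steps of lower glycolysis, did not pass in inguinal fat (0.17, SE 0.10, and 0.23, SE 0.11, edgeR adjusted p = 0.237 and 0.113). Gapdh has 40 pseudogene copies at 95% identity or more, whose counts came to 2.04% of its own. Among other matches, the same search paired Pfkp, G6pdx and Rpe with the genes Pitrm1, Ikbkg and Kansl1l. Over all libraries Pitrm1, Ikbkg and Kansl1l held 42343, 37835 and 21777 counts. Pfkp, G6pdx and Rpe themselves held 33752, 94134 and 38936. Whether reads were shared between them was not tested. In brown fat Pkm was at 993, 884, 570.0 and 544 CPM in wild type and at 1278, 1047, 1086 and 1066 CPM in the labelled knockout. The groups did not overlap, wild-type libraries 3 and 4 were the lowest, and Pkm did not pass (log2 0.58, SE 0.19, edgeR adjusted p = 0.168). Brown Pgam1 was at 77.2, 101, 94.2 and 92.8 CPM and at 102, 66.2, 67.04 and 66.8 CPM. Pgam1 did not pass with all 8 libraries (log2 -0.28, SE 0.16, edgeR adjusted p = 0.3604) and was lower without labelled knockout library 1 (log2 -0.46, SE 0.10, edgeR adjusted p = 0.0135).

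**Figure D2:**
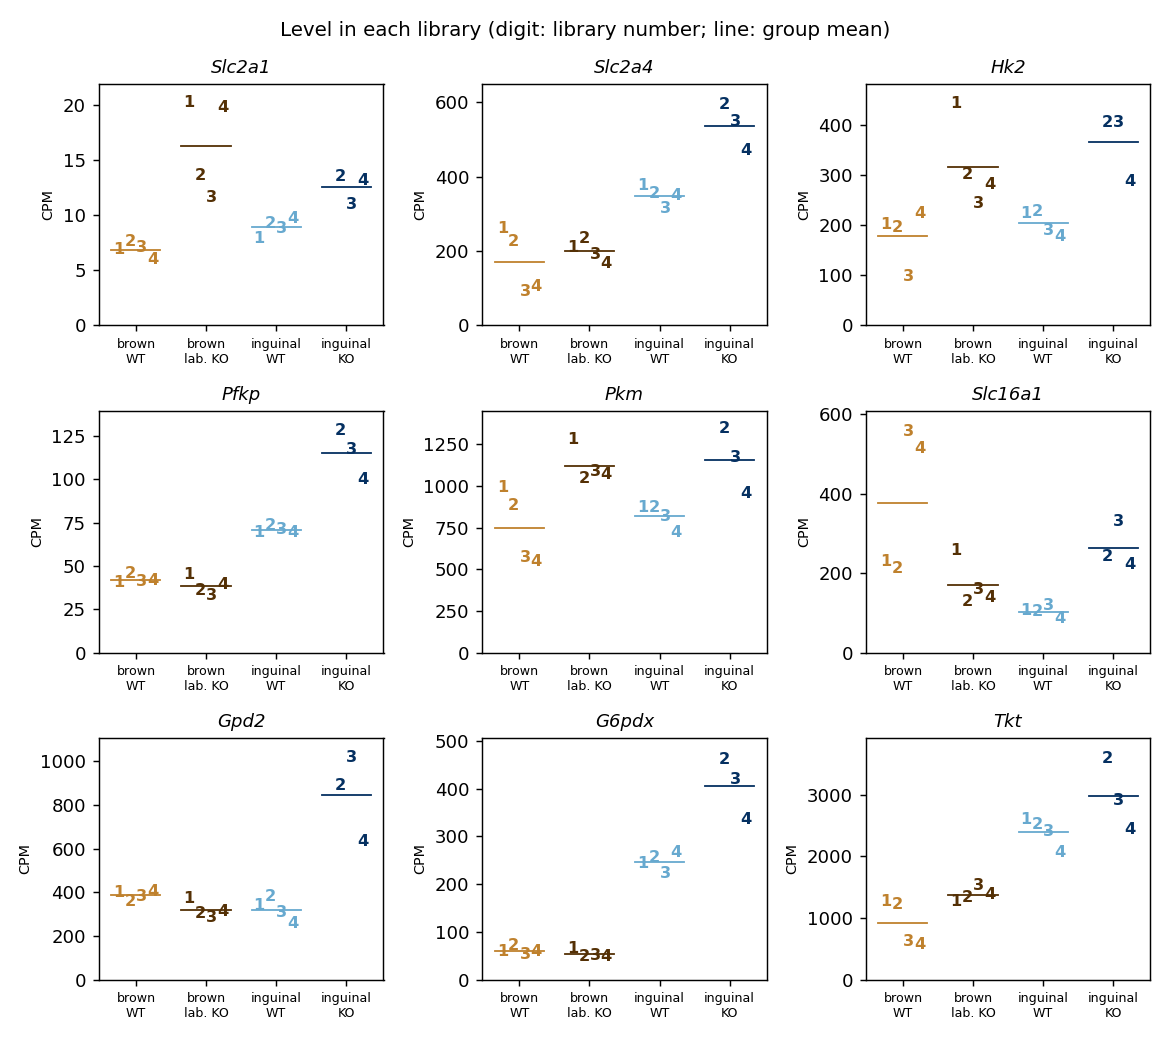
Level of 9 genes in every library, in CPM on a linear axis from 0; each digit is a library, plotted by its number within the group, and the line is the group mean. Inguinal knockout libraries lie above wild type for 8 of the 9 genes, the exception being Tkt, whose library 4 lies in the wild-type range; in brown fat wild-type libraries 1 and 2 part from 3 and 4 for Slc2a4, Pkm, Slc16a1 and Tkt.

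Slc16a1 encodes MCT1, which moves lactate, pyruvate and ketone bodies across the membrane. In inguinal fat it was at 105, 103, 118 and 86.0 CPM in wild type and at 241, 329 and 221 CPM in the knockout (log2 1.37, SE 0.14, edgeR adjusted p = 2.63e-05), the smallest p of the 34. In brown fat it was at 230.2, 211, 556 and 513 CPM in wild type and at 258, 127, 159 and 138 CPM in the labelled knockout. Labelled knockout libraries 2 to 4 lay below every wild-type library and library 1 lay above wild-type libraries 1 and 2. By edgeR it did not pass in brown fat (log2 -1.16, SE 0.37, adjusted p = 0.155). DESeq2 (-1.16, adjusted p = 0.0244), limma-voom (-1.39, adjusted p = 0.0153) and the fit without library 1 (-1.42, edgeR adjusted p = 0.0463) called it lower.

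Ldhb, the lactate dehydrogenase subunit of oxidative tissues, rose in inguinal fat from 214, 215, 209.9 and 178 CPM to 401, 345 and 289 CPM, without overlap (log2 0.77, SE 0.12, edgeR adjusted p = 0.000296). Ldha, the subunit of glycolytic tissues, was at 1604, 1558, 1583 and 1597 CPM and at 1893, 1726 and 1528 CPM, with knockout library 4 below all wild-type libraries. Ldha did not pass (log2 0.13, SE 0.10, edgeR adjusted p = 0.373). Slc16a3, the lactate exporter MCT4, was at 0.740 to 1.49 CPM in all 7 inguinal libraries. In brown fat the log2 changes of Ldha, Ldhb and Slc16a3 were 0.12, 0.062 and 0.72, none past the test.

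Both glycerol 3-phosphate dehydrogenases rose in inguinal fat. Gpd2, the mitochondrial enzyme that hands electrons from glycerol 3-phosphate to the respiratory chain, was at 339.5, 381, 306 and 258 CPM in wild type and at 888, 1016 and 632 CPM in the knockout. All knockout libraries were above all wild-type ones (log2 1.41, SE 0.16, edgeR adjusted p = 9.09e-05). Gpd1, its cytosolic partner and per kilobase the most abundant of the 34 in every group, was at 4009, 3499, 3442 and 3399 CPM and at 7732, 6159 and 4205 CPM (log2 0.77, SE 0.17, edgeR adjusted p = 0.00474). Knockout library 4 of Gpd1 was closest to wild type.

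In brown fat Gpd2 was at 402, 360.5, 381 and 402 CPM in wild type and at 374, 305, 285 and 312 CPM in the labelled knockout. Library 1 of the labelled knockout lay inside the wild-type range and the others below it. Its log2 fold change, -0.28 (SE 0.11, edgeR adjusted p = 0.202), became -0.37 (SE 0.089, edgeR adjusted p = 0.0199) without that library. Gpd1 changed by -0.081 (SE 0.24, edgeR adjusted p = 0.881).

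The oxidative pentose phosphate branch makes NADPH, and its 3 enzymes all rose in inguinal fat. G6pdx, glucose 6-phosphate dehydrogenase, which commits glucose 6-phosphate to the branch, was at 243, 256, 222 and 267 CPM in wild type and at 461, 418 and 334 CPM in the knockout (log2 0.73, SE 0.11, edgeR adjusted p = 0.000433). Pgd, 6-phosphogluconate dehydrogenase, was at 520.2, 475, 427 and 467 CPM and at 956, 864 and 721 CPM (log2 0.86, SE 0.11, edgeR adjusted p = 0.000109). Pgls, the lactonase between them, was at 76.8, 62.6, 66.8 and 58.8 CPM and at 112, 82.2 and 95.05 CPM (log2 0.55, SE 0.12, edgeR adjusted p = 0.00297). In each of them the groups did not overlap, a separation whose share over all genes was not counted.

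In brown fat none of the 3 passed, and 0 had an unadjusted p below 0.05. DESeq2 and limma-voom called 0 of them as well. G6pdx was at 60.2, 72.2, 53.0 and 58.6 CPM in wild type and at 65.6, 48.7, 50.2 and 48.0 CPM in the labelled knockout (log2 -0.21, SE 0.13, edgeR adjusted p = 0.426). Labelled knockout library 1 was inside the wild-type range, the other 3 below it. Pgls and Pgd changed by 0.044 and 0.082.

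The non-oxidative branch returns pentoses to glycolysis or supplies ribose, and 2 of its 4 genes rose in inguinal fat. Taldo1, transaldolase, was at 660.02, 588, 592 and 541 CPM in wild type and at 962, 836 and 776 CPM in the knockout, without overlap (log2 0.54, SE 0.11, edgeR adjusted p = 0.00188). Rpia, ribose 5-phosphate isomerase, rose by 0.50 (SE 0.13, edgeR adjusted p = 0.00924). Tkt, transketolase, was at 2595, 2519.9, 2411 and 2063 CPM and at 3584, 2910 and 2442 CPM, with knockout library 4 inside the wild-type range (log2 0.33, SE 0.13, edgeR adjusted p = 0.0795). Rpe, ribulose 5-phosphate epimerase, changed by 0.29 (SE 0.11, edgeR adjusted p = 0.0652).

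Tkt had the smallest brown p of the 4, at 1271, 1226, 623 and 576 CPM in wild type and 1265, 1336, 1522 and 1388 CPM in the labelled knockout. Wild-type libraries 1 and 2 were level with the labelled knockout and libraries 3 and 4 far below, and Tkt did not pass (log2 0.57, SE 0.25, edgeR adjusted p = 0.267). Taldo1 changed by 0.19, Rpia by -0.13 and Rpe by -0.15. Without labelled knockout library 1, Rpe was lower (log2 -0.3694, SE 0.0945, edgeR adjusted p = 0.02475).

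Libraries within a group did not lie evenly over these genes. The share of all genes with each order given here was not counted, so the orders are not shown to be particular to the 34. Among the inguinal knockout libraries, library 4 was the lowest for 28 of the 34 genes, and for 19 of the 22 that rose. On the first principal component of all inguinal libraries, knockout libraries 2 to 4 were at 55.6, 41.7 and 23.4. Wild type was at -33.6 to -21.3, so library 4 was the nearest to it. In inguinal knockout libraries 2 to 4, brown adipocyte markers summed to 3500.1, 3351 and 2784 CPM. T cell markers summed there to 9.13, 9.05 and 18.8 CPM, and B cell markers to 5.19, 6.09 and 14.4 CPM. Among the brown labelled knockout libraries, library 1 was the highest for 21 of 34. Brown wild-type libraries 1 and 2 were both above libraries 3 and 4 for 21 genes and both below them for 4. In the same brown wild-type libraries 1 to 4, brown adipocyte markers summed to 5786, 6478, 9726 and 10014 CPM and muscle markers to 5770.0, 4615, 3416 and 3837 CPM. In brown labelled knockout libraries 1 to 4, brown adipocyte markers summed to 4331, 7094, 5433 and 7057 CPM. Muscle markers summed there to 5690.2, 4349, 3182 and 3947 CPM. Library 1 thus had the lowest brown adipocyte and the highest muscle sum of that group. Epithelial markers reached 214 CPM in labelled knockout library 4 against at most 4.27 CPM in the other 7 brown libraries. The part of these markers in the brown and inguinal values was not tested.

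**Figure D3:**
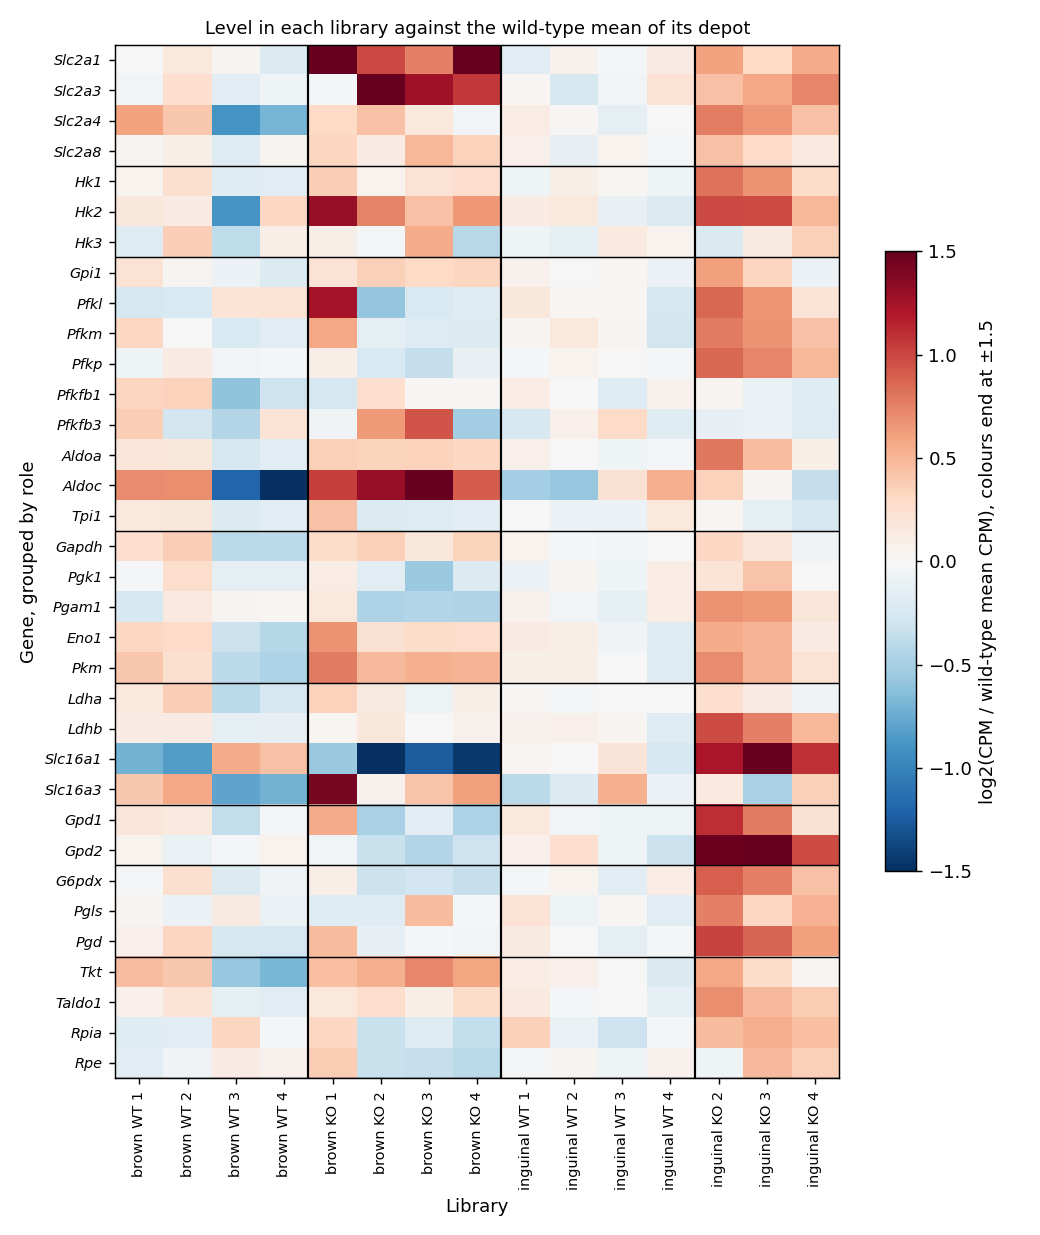
Level of each of the 34 genes (rows, by role) in each of the 15 libraries (columns), as log2 of CPM over the wild-type mean of the same depot; red is higher, blue lower, and colours end at 1.5 on either side. Brown KO columns are the labelled knockout. The 3 inguinal knockout columns are red for most rows and for most of them palest in library 4, while the brown labelled knockout columns mix red and blue, with library 1 unlike libraries 2 to 4 for Slc2a3, Pfkl and Pfkm.

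The difference between the knockout effects, inguinal minus brown, was tested with all 4 groups in 1 fit. It passed for 7 of the 34, all higher in inguinal fat, and 0 were lower. The background was 9.0% of 16858 genes in either direction, 4.8% higher and 4.2% lower. The median difference was 0.23, beside -0.066 for all genes. The differences were 2.499 for Slc16a1 (SE 0.45, edgeR adjusted p = 0.00561), 1.67 for Gpd2 (SE 0.21, edgeR adjusted p = 0.000362), 0.91 for G6pdx (SE 0.19, edgeR adjusted p = 0.00835), 0.84 for Pfkp (SE 0.15, edgeR adjusted p = 0.00364) and 0.69 for Ldhb (SE 0.16, edgeR adjusted p = 0.0156). These 5 passed in all 21 alternatives. Pgam1 (0.79, SE 0.21, edgeR adjusted p = 0.0314) and Pgd (0.75, SE 0.22, edgeR adjusted p = 0.0433) were lost in 10 and 12 of them.

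For the lower direction, 1 gene had an unadjusted p below 0.05. That gene was Slc2a1, whose effect was smaller in inguinal than in brown fat by 0.76 (difference -0.76, SE 0.25, edgeR adjusted p = 0.0647), and DESeq2 and limma-voom called it lower. The hexokinase Hk2 moved by 0.85 in inguinal and 0.81 in brown fat, a difference of 0.017 (SE 0.34, edgeR adjusted p = 0.983). Without brown labelled knockout library 1, 14 of the 34 differences passed, 13 higher and 1 lower (21.2% of all genes). The added genes were Slc2a3 (-0.77), Pfkl (0.93), Pfkm (0.83), Pgk1 (0.53), Gpd1 (1.13), Rpia (0.80) and Rpe (0.65).

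Isoenzyme make-up was tested as each gene's share of its family's counts in a library, with 16 exact two-sided permutation tests. With these group sizes the smallest adjusted p that 16 tests can give is 0.0571, so no share could pass and the values are a description. In inguinal fat Ldha made up 88.6 ± 0.93% (SD, n = 4) of lactate dehydrogenase counts in wild type and 83.3 ± 0.78% (n = 3) in the knockout, lower in all 3 libraries. The exact permutation p was 0.0571, the smallest that 4 against 3 libraries allow, and 0.261 after adjustment. Counted per kilobase the shares were 78.7 ± 1.55% and 70.3 ± 1.17%. Hk2 made up 88.8 ± 1.24% of hexokinase counts in inguinal wild type and 90.7 ± 0.49% in the knockout (exact permutation p = 0.0571, 0.261 adjusted). The 3 phosphofructokinase shares moved by at most 1.34 percentage points in inguinal fat.

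Between the wild-type depots, 26 of the 34 genes differed, 8 higher and 18 lower in newborn brown than in inguinal fat at day 24. Over all 15979 genes 61.4% differed, 30.7% higher and 30.7% lower, and these wild-type libraries also serve in the comparisons above. The smallest p was that of G6pdx, at 53.0 to 72.2 CPM in brown and 222 to 267 CPM in inguinal fat (log2 -2.02, SE 0.10, edgeR adjusted p = 2.30e-08). Pgd and Tkt were lower in brown by 1.39 and 1.37 on the log2 scale, so 6 of the 7 pentose phosphate genes were lower there. The 1 gene higher in brown was Pgls (0.76, SE 0.090, edgeR adjusted p = 1.69e-05).

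Isoenzymes parted between the depots. Of the lactate dehydrogenase subunits, Ldhb was higher in brown (1.10, SE 0.093, edgeR adjusted p = 1.23e-06) and Ldha lower (-0.84, SE 0.15, edgeR adjusted p = 0.000478). Among the phosphofructokinases, Pfkm was higher in brown (1.07, SE 0.12, edgeR adjusted p = 2.35e-05) while Pfkl (-0.94) and Pfkp (-0.75) were lower. Both monocarboxylate transporters among the 34 were higher in brown, Slc16a1 by 1.87 (SE 0.36, edgeR adjusted p = 0.00262) and Slc16a3 by 2.33 (SE 0.36, edgeR adjusted p = 0.000236). Slc16a7, another monocarboxylate transporter, from the further list read below, was lower in brown. Of the glucose transporters Slc2a3 was higher (1.28) and Slc2a4 lower (-1.02, SE 0.35, edgeR adjusted p = 0.0355), and the Slc2a4 call was lost in 6 of 14 alternatives. Wild-type brown libraries held 3416 to 5770.0 CPM of muscle markers and inguinal ones 159 to 444 CPM, and the part of muscle in these differences was not tested.

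**Figure D4:**
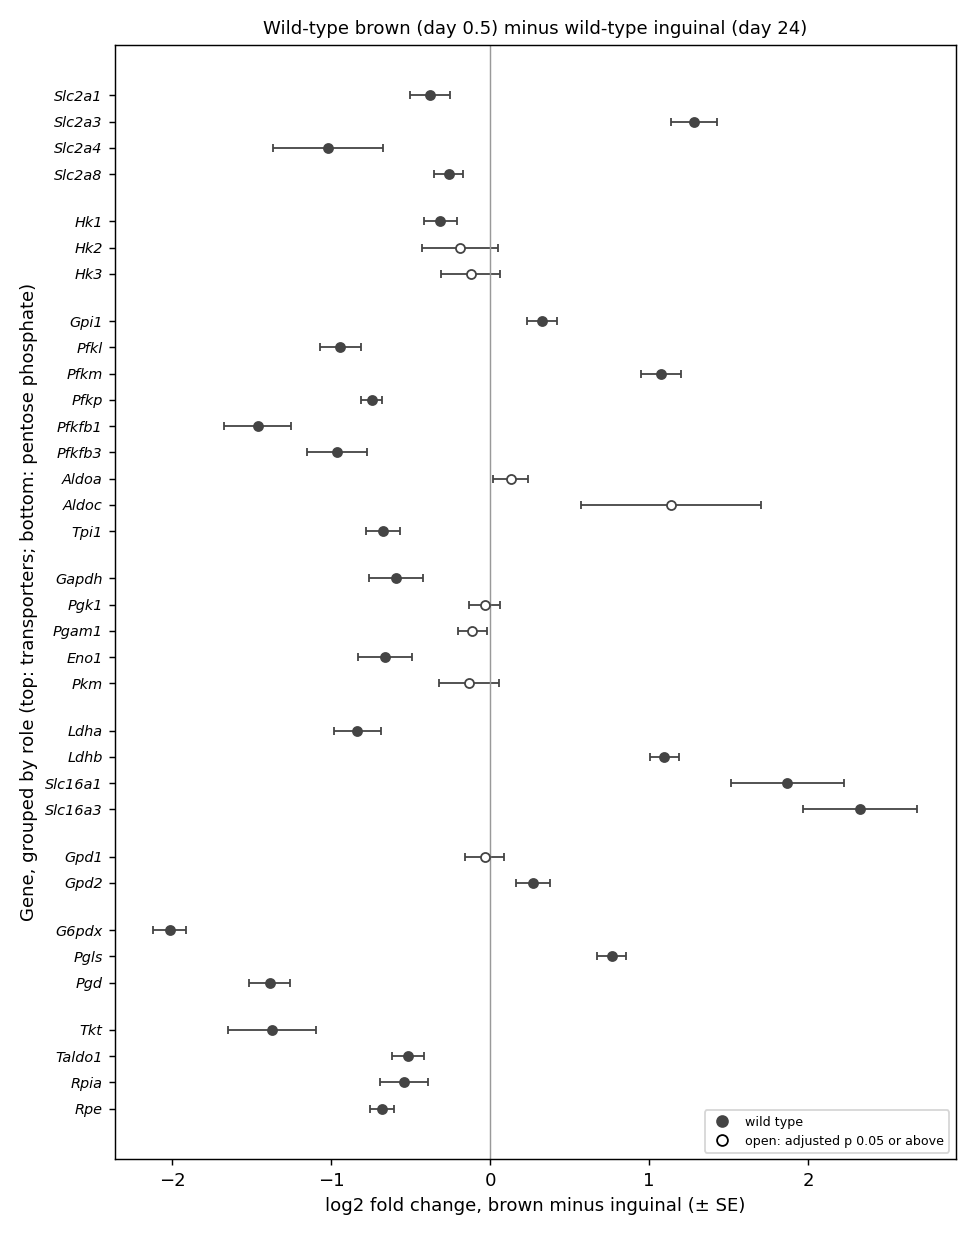
Log2 difference of each of the 34 genes between wild-type brown fat (day 0.5) and wild-type inguinal fat (day 24), 4 libraries each, with its standard error; positive values are higher in brown. Filled symbols passed at an adjusted p below 0.05, 8 to the right and 18 to the left of 0, with G6pdx farthest to the left and Slc16a3 farthest to the right.

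A list of 51 further genes of the pathway and its regulators was also read. In inguinal fat 45 were tested, 15 rose and 8 fell, beside 15.3% higher and 13.3% lower over all genes. Trib3, a stress-induced pseudokinase that restrains insulin signalling, was at 3.09, 3.20, 2.37 and 2.41 CPM in wild type and at 14.2, 12.2 and 10.9 CPM in the knockout (log2 2.18, SE 0.16, edgeR adjusted p = 1.35e-06). Tigar, a phosphatase that lowers fructose 2,6-bisphosphate, was at 17.8, 17.3, 15.9 and 17.5 CPM and at 37.5, 34.2 and 29.0 CPM (log2 0.98, SE 0.11, edgeR adjusted p = 2.81e-05). Neither overlapped between groups.

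Prps1, which turns ribose 5-phosphate into the precursor of nucleotides, fell in inguinal fat from 112, 108, 106 and 118 CPM to 51.9, 61.6 and 65.7 CPM (log2 -0.88, SE 0.094, edgeR adjusted p = 2.60e-05). Slc2a13, a proton-coupled inositol transporter, fell too, from 14.4, 15.6, 15.5 and 15.5 CPM to 6.78, 7.83 and 6.36 CPM (log2 -1.115, SE 0.12, edgeR adjusted p = 2.86e-05). The muscle isoforms Eno3 and Pgam2 fell by 0.88 and 0.93, beside the fall of the muscle markers given above. Limma-voom did not call Pgam2. The fructose bisphosphatase gene Fbp2, of the same list, rose in inguinal fat by edgeR, DESeq2 and limma-voom. The part of muscle in these changes was not tested.

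In brown fat 0 of the 47 genes tested from that list passed by edgeR, while 18 had an unadjusted p below 0.05. DESeq2 called 3 higher and 3 lower (6.53% of all genes in either direction), and limma-voom 8 higher and 7 lower (19.8%). Among those with the smallest p were Fbp2, a fructose bisphosphatase (-1.23, SE 0.27, edgeR adjusted p = 0.0821), Txnip, a glucose-induced inhibitor of glucose uptake (0.76, SE 0.17, edgeR adjusted p = 0.0825), and Hif3a, a hypoxia-inducible factor subunit (1.57, SE 0.37, edgeR adjusted p = 0.102). Brown Txnip was at 2779, 1645, 2655 and 2365 CPM in wild type and at 3705, 4063, 4606 and 3695 CPM in the labelled knockout, without overlap.

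For the difference between depots, 5 of 47 genes of this list were higher and 3 lower in inguinal than in brown fat, beside 4.8% and 4.2% of all genes. Txnip fell in inguinal fat, from 783, 1235, 1315 and 998 CPM to 598, 624 and 526 CPM (log2 -0.88, SE 0.16, edgeR adjusted p = 0.00137), and its effect was lower there than in brown fat (difference -1.66, SE 0.25, edgeR adjusted p = 0.00123). Fbp2 differed the other way, by 2.60 (SE 0.37, edgeR adjusted p = 0.00104), and Mlx, the partner of the glucose-sensing factor ChREBP, by 1.12 (SE 0.20, edgeR adjusted p = 0.00368). Tigar, Trib3 and Slc2a9 were the other 3 higher, and Prps1 and Slc2a13 the other 2 lower.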

How the data were processed

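The authors deposited 1 table of raw read counts per gene for the 15 libraries, with Ensembl identifiers. Build mm9 and the tools TopHat2 2.1.0, Subread with featureCounts, and edgeR appear in the submitters' processing notes. The annotation release and strand setting are not stated there. Libraries were stranded and poly(A)-selected, per the labels' protocols, and were grouped by depot and genotype from the labels. Symbols came from a gene name table, exon lengths from GENCODE M21 and promoters from RefSeq (GRCm38.p6), so lengths are of another build than the counts.

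Each knockout comparison was fitted on its own depot with edgeR 4.0.16 (R 4.3.3; filterByExpr with a minimum count of 10, TMM scaling, robust quasi-likelihood F-test), with Benjamini-Hochberg adjustment over all genes and a threshold of 0.05. The difference between depots used all 4 groups in 1 fit. The standard error is the fold change divided by the square root of F. CPM values in the text share 1 TMM scaling over the 15 libraries. Alternatives were DESeq2 1.42.0 (size factors; Wald test), limma 3.58.1 (voom with library weights), no filter, a filter at 5 CPM, the replicate block, all 4 groups in 1 fit, and each library left out. Shares were tested with SciPy 1.17.1, and copies searched with BLAST 2.17.0 at 95% identity over 100 bp or more. The fits were tested on simulated data.

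The members and lists were chosen with earlier results of these data known. Library values are given for up to 12 genes called in a knockout comparison or in the difference, by the smallest inguinal adjusted p, and for the gene with the smallest p of each role in each knockout comparison. Of the 51 further pathway genes, the 4 with the smallest p in each comparison were named by this rule, except 1 that is not reported here. Other genes were named after their values were seen. No pair of libraries of a group agreed within sampling noise.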

Additional observations from a re-analysis of the deposited data

Results flagged for a closer look

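In the brown labelled knockout, library 1 stood far above the other 3 for 9 of the 34 genes, by Dixon's gap test at the 95% level. It was at 331 CPM for Pfkl, 152 CPM for Pfkm, 607 CPM for Tpi1, 102 CPM for Pgam1, 674 CPM for Eno1, 1278 CPM for Pkm, 65.6 CPM for G6pdx, 249.98 CPM for Pgd and 70.4 CPM for Rpe. In inguinal wild type, library 4 was far below the others for Ldhb (178 CPM) and library 1 far above them for Gpd1 (4009 CPM). Chance flags about 1 group in 20, and these are 11 of the 102 gene and group pairs that were read. The 9 genes share 1 library, so they are not 9 separate observations.

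The knockout effect differed between inguinal and brown fat for 7 genes by the test of the difference itself (edgeR). The differences on the log2 scale were 2.499 for Slc16a1, 1.67 for Gpd2, 0.91 for G6pdx, 0.84 for Pfkp, 0.79 for Pgam1, 0.75 for Pgd and 0.69 for Ldhb.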

How the results depend on the processing

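In brown fat 41 genes were called in all and 1 of the 34. These counts became 67 genes with no filter, 1032 genes and 4 of the 34 with the DESeq2 Wald test, 3127 and 9 with limma-voom, and 1151 and 4 with all 4 groups in 1 fit, while a filter at 5 CPM left 0 of the 34. Leaving out 1 brown library gave 2 to 2905 genes and 0 to 6 of the 34, the most without labelled knockout library 1. In inguinal fat all 4 groups in 1 fit gave 2249 genes and 14 of the 34. The difference between depots gave 2351 genes with DESeq2, 3696 and 13 of the 34 with limma-voom, and 632 to 3571 genes and 5 to 14 of the 34 with 1 library left out.

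Correlations between the deviations of same-numbered libraries were weak, at -0.072 to 0.141. For brown labelled knockout libraries 1, 3 and 4 the same-numbered wild-type library gave the highest value (0.076, 0.141 and 0.067). For brown library 2 (-0.036) and the inguinal knockout libraries it did not. With so few libraries these values cannot decide whether the numbers pair them. With the replicate block, 7 genes and 0 of the 34 were called in brown fat, 3990 and 22 in inguinal fat, 859 and 6 for the difference and 9574 and 26 between wild-type depots. The block turned inguinal Aldoc to -0.0835 and Slc16a3 to -0.0242.

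No called gene changed direction, but several near 0 did. With limma-voom brown Hk3 was at -0.0182, Pfkl at -0.2751 and Pfkm at -0.1149. With 1 library left out, brown log2 changes ran from -0.109 to 0.234 for Hk3, -0.3271 to 0.4429 for Pfkl, -0.1876 to 0.1607 for Pfkm, -0.1358 to 0.149 for Pfkfb1, -0.1924 to 0.0571 for Tpi1, -0.3731 to 0.0397 for Gpd1, -0.1373 to 0.123 for Pgls, -0.071 to 0.206 for Pgd and -0.3024 to 0.0002 for Rpia. Inguinal changes ran from -0.0092 to 0.2625 for Hk3, -0.16 to 0.2999 for Aldoc and -0.0911 to 0.2906 for Slc16a3. Shares moved between -2.1631 and 4.63212 percentage points for brown Pfkl, -2.36887 and 2.48462 for Pfkm, -2.26883 and 0.272985 for Pfkp, -0.0404506 and 2.6382 for Ldha, and -0.289007 and 0.698566 for inguinal Pfkm. The inguinal Slc2a8 call was lost in 9 of 14 alternatives (edgeR or limma adjusted p = 0.0521 to 0.119). The cause of these changes was not tested.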
